A study of Homo sapiens with 16 samples.

Results

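Intermediate phase P7 of the gemcitabine-resistant GRC1 cell line was compared with parental phase P0 over every gene with a mean above 1 CPM (reads of a gene scaled to a fixed library total) in the 8 libraries of the 2 phases, which left 12928 of the 39007 gene symbols of the deposited table. P0 is T24, a bladder cancer cell line, without prior selection, and P7 is the GRC1 line derived from it at phase 7 of a stepwise selection with gemcitabine. RNA was sequenced from 4 libraries of each phase, and 4 libraries each of early phase P3 and late phase P15 complete the series of 16. The titles of all 16 libraries carry the mark NT, which the titles do not spell out. The methods of the study do not say whether gemcitabine was present when RNA was taken. GRC1 is a single lineage of a single parental line, so that P7 stands for that lineage and not for gemcitabine resistance in general. The labels do not say that the libraries of a phase came from separate cultures, and the p-values below therefore measure only the spread between these libraries, which may be technical.

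Gemcitabine is a deoxycytidine analogue that enters cells through nucleoside transporters, is activated by deoxycytidine kinase, and blocks DNA synthesis and ribonucleotide reductase. The endoplasmic reticulum (ER) folds secreted and membrane proteins with chaperones such as HSPA5, and the unfolded protein response raises those chaperones when folding is overloaded. Lysosomes degrade proteins, glycans and lipids with acid hydrolases. Interferons induce antiviral genes through the transcription factors STAT2 and IRF9 and their partners, and several of these genes are also induced directly by IRF3.

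Values are log2(CPM + 1) as deposited, and all fold changes are differences of these values, which understate the change of low genes. Estimated total counts were 33900000 to 38300000 per library at P0 and 34900000 to 50300000 at P7. The median absolute difference between 2 libraries was 0.06 to 0.10 within P0, 0.06 to 0.09 within P7 and 0.21 to 0.23 between the phases. Transcripts of the mitochondrial genome took 0.94 to 1.80% of the CPM at P0, with the highest share in P0 replicate 2, and 1.63 to 1.92% at P7. P0 replicate 2 also held the highest P0 value of 38 of the 60 interferon-stimulated genes and of 21 of the 28 hypoxia and glycolysis genes tested, against 33.7% of all tested genes. The same library led in other lists, such as ribosomal proteins (57 of 83), lysosome (45 of 73) and HLA (11 of 18). In others it led less often, such as cell cycle (5 of 40) and sterol and fatty acid synthesis (3 of 27).

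With limma and a Benjamini-Hochberg adjusted p below 0.05, 3669 genes (28.4%) were higher at P7 and 4483 genes (34.7%) were lower, while 4776 did not pass. These shares are the background for all counts of gene lists below. A change of at least 2-fold was required for the counts called 2-fold from here on. It was met by 247 genes that rose (1.91%) and 213 that fell (1.65%). The median change over all tested genes was -0.03, and 90% of genes lay between -0.60 and 0.64. Of the genes with a 2-fold change, 27 rose and 33 fell by at least 2 on the log2 scale, that is by 4-fold or more. None of the 460 genes with a 2-fold change had overlapping values in the 2 phases, and 53.3% of all tested genes did not overlap. A gene low in 1 phase can pass the 1 CPM filter through the other phase alone, and can then be called in 1 direction only.

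The largest rises were led by CCL5, the T cell attracting chemokine RANTES. Its log2 values were 0.61, 0.99, 0.86 and 0.35 in the 4 P0 libraries and 5.08, 5.04, 5.08 and 5.07 at P7, a change of 4.37 (standard error 0.095, adjusted p = 1.2e-21). The lowest P7 library lay far above the highest P0 library, and mean CPM went from 0.651 to 32.5. STC1, a secreted glycoprotein first known for calcium regulation, stood at 3.66, 3.95, 3.83 and 3.64 at P0 and at 7.45, 7.29, 7.50 and 7.41 at P7, a change of 3.64. VIM, the intermediate filament protein vimentin, stood at 5.56, 5.57, 5.49 and 5.48 at P0 and at 8.99, 9.05, 9.0 and 8.98 at P7, a change of 3.48 (standard error 0.034, adjusted p = 1.1e-28). For both genes the libraries of a phase were tight and the phases were far apart. The other large rises were those of NDRG1, a stress- and hypoxia-responsive gene (3.21), LRP3 (3.13), the adhesion molecule CEACAM1 (2.95), the Notch pathway ligase DTX4 (2.81), MEGF6 (2.78), the antiviral genes OASL (2.73) and RSAD2 (2.69), and ABCC9, a regulatory subunit of potassium channels (2.70). Exons of VIM, CEACAM1, DTX4, LRP3, ABCC9 and RSAD2 overlap annotated exons of a gene on the opposite strand. The sources used here do not say whether strand was used in counting, so that reads of the partner cannot be told apart. For ABCC9, LRP3 and NDRG1, exons overlap those of another annotated gene on the same strand.

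DHRS3, which reduces retinal to retinol, fell most. Its values were 6.39, 6.44, 6.41 and 6.47 at P0 and 0.84, 0.94, 0.78 and 0.82 at P7, a change of -5.58 (standard error 0.084, adjusted p = 6.2e-25), or from 85.1 to 0.798 CPM. KRT81, a hair keratin, fell from 7.64, 7.68, 7.71 and 7.80 to 3.89, 3.91, 3.98 and 3.88, a change of -3.79. Neither gene had a P7 library near the P0 range. The cancer-testis antigens MAGEA6, MAGEB17 and MAGEA3 of the X chromosome were among the largest falls. MAGEA6 stood at 4.28, 4.29, 4.41 and 4.53 at P0 and at 0.21, 0.26, 0.23 and 0.14 at P7 (change -4.17). The change was -3.18 for MAGEB17 and -3.06 for MAGEA3. All of them passed the 1 CPM filter through P0, where they are high, so that their falls say nothing about the family. MAGEA3 and MAGEA6 are near-identical copies, and reads can be split between them. The remaining large falls were those of TMEM47 (-3.47), SPNS2, which exports sphingosine-1-phosphate (-3.08), the neutrophil chemokine CXCL6 (-2.95), the neuronal RNA-binding protein ELAVL2 (-2.92), the guanine nucleotide exchange factor DOCK8 (-2.88), PLAT, the tissue plasminogen activator (-2.78), and GABRA3, a subunit of GABA receptors (-2.76). Exons of SPNS2, DOCK8 and MAGEB17 also overlap exons on the opposite strand, and those of CXCL6 overlap a pseudogene on the same strand.

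**Figure D1:**
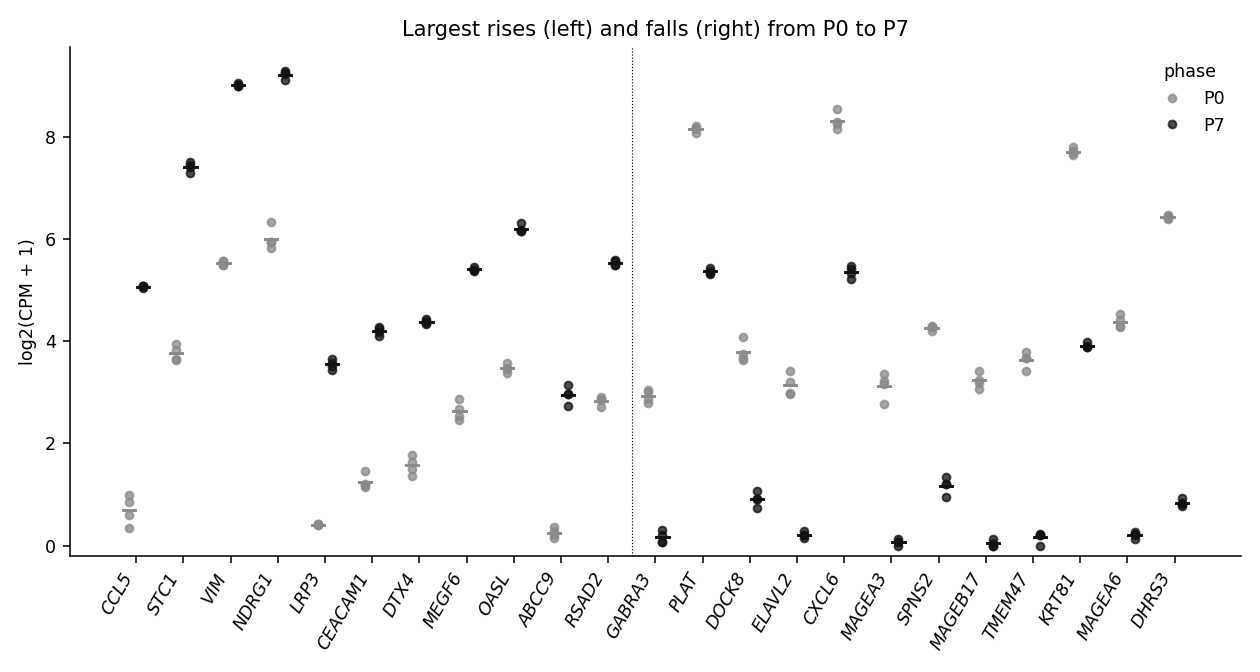
Each point is a library, with its log2(CPM + 1) value on the vertical axis, for 11 genes with the largest rises and 12 with the largest falls from P0 (grey) to P7 (black); horizontal marks are the means of the 4 libraries. For each of the 23 genes the 4 P7 points lie entirely above or entirely below the 4 P0 points, from CCL5 (change 4.37) to DHRS3 (change -5.58).

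Of these 23 genes, 21 lay at least 2-fold to the same side of P0 at early phase P3, and the fit tested P7 against P3 directly. Between P7 and P3, 6 of the 23 did not pass, namely LRP3, CEACAM1, DTX4, RSAD2, MAGEB17 and GABRA3 (adjusted p = 0.055 to 0.32), and 17 passed. VIM stood 1.53 higher at P7 than at P3 (adjusted p = 3.2e-21) and MEGF6 1.21 higher (adjusted p = 5.4e-12). SPNS2 was lower at P7 than at P3, with a difference of -2.35 (adjusted p = 4.4e-16), and PLAT showed -1.81 (adjusted p = 3.3e-21). ABCC9 (-0.88, adjusted p = 1.8e-08) and CCL5 (-0.61, adjusted p = 6.7e-06) were lower at P7 than at P3, though far above P0 at both phases.

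Of 21 genes of gemcitabine handling, 18 were tested. Of these, 6 were higher (33.3%) and 8 lower (44.4%) at P7, against 28.4% and 34.7% of all tested genes. The median change was -0.07, and only NT5E passed the 2-fold threshold. NT5E (CD73) is a surface 5′-nucleotidase that dephosphorylates extracellular nucleotides. It stood at 5.56, 5.54, 5.66 and 5.57 at P0 and at 7.57, 7.61, 7.56 and 7.54 at P7, a change of 1.99 (standard error 0.035, adjusted p = 1.5e-23), without overlap. Among the transporters, SLC29A1, the main route of gemcitabine uptake, fell by 0.33 on the log2 scale and SLC29A2 by 0.71. Among the activating kinases, DCK rose by 0.17, while the mitochondrial TK2 fell by 0.53 and NME1 by 0.39. Of the target enzymes, the ribonucleotide reductase subunit RRM2 rose by 0.28 and RRM1 did not pass (-0.04). SAMHD1, a hydrolase of deoxynucleotides, fell by 0.45. The deaminase CDA, which inactivates gemcitabine, lay below the 1 CPM filter, at 0.45, 1.03, 1.07 and 0.79 at P0 and 0.48, 0.53, 0.68 and 0.44 at P7, and the 2 phases overlapped.

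ER chaperones and genes of the unfolded protein response rose nearly as a whole: 28 of 30 tested members were higher at P7, none was lower, and 7 passed the 2-fold threshold (median change 0.74). HSPA5 (BiP), the central ER chaperone, stood at 9.51, 9.48, 9.48 and 9.47 at P0 and at 10.57, 10.65, 10.58 and 10.59 at P7, a change of 1.11 (standard error 0.056, adjusted p = 1.1e-14). The P7 libraries lay within 0.08 of each other and more than 1 above P0. The 11 chaperones all rose, among them HSP90B1 (1.06), CRELD2 (1.07), MANF (1.02), HYOU1 (0.80) and CALR (0.80). All 7 disulfide isomerases and oxidases rose as well, led by PDIA4 (1.10), and so did the 8 genes of ER-associated degradation, led by HERPUD1 (1.01) and EDEM1 (0.97). Of the sensors, EIF2AK3 (PERK) rose by 0.56, while ATF6 (0.07) did not pass and ERN1 (0.12, adjusted p = 0.06) passed under 3 alternatives only. DNAJC3, the co-chaperone with the largest rise (1.81), lies on chromosome 13, in a stretch described below where nearly all genes rose, and without it 27 of 29 members were higher (median 0.73).

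Genes of the integrated stress response, a programme that works through the transcription factor ATF4, moved both ways, with 11 of 21 higher and 8 lower (median 0.35). Of 9 tested regulators and feedback genes, 6 were higher, with DDIT4 (1.30), ATF3 (1.21), DDIT3 (CHOP; 0.92) and PPP1R15A (0.89) in front. DDIT3 stood at 3.48, 3.71, 3.75 and 3.52 at P0 and at 4.62, 4.50, 4.38 and 4.64 at P7, without overlap. ATF4 itself fell by 0.20. Of 12 genes of amino acid and one-carbon metabolism, 6 were lower, namely ASNS (-0.54), CTH (-0.52), PSAT1 (-0.40), PSPH (-0.36), PHGDH (-0.35) and SHMT2 (-0.27), whereas the amino acid transporters SLC7A5 (0.64), SLC3A2 (0.47) and SLC7A11 (0.43) were higher.

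Lysosomal genes shifted upwards with mostly small changes. Of 73 tested genes, 52 (71.2%) were higher and 7 lower, 5 of them 2-fold higher and 1 2-fold lower, with a median change of 0.31. LAMP1, the most abundant lysosomal membrane protein, stood at 8.62, 8.69, 8.63 and 8.65 at P0 and at 10.07, 10.03, 10.08 and 10.07 at P7, a change of 1.42 (standard error 0.029, adjusted p = 4.3e-22). CTSD, an aspartic protease, stood at 6.98, 7.22, 6.96 and 7.02 at P0 and at 8.51, 8.31, 8.50 and 8.43 at P7, a change of 1.39. Both were free of overlap, but they differed in time: CTSD was 1.25 higher at P7 than at P3 (adjusted p = 4e-16), and LAMP1 rose at P3 and again by 0.69 from P3 to P7 (adjusted p = 8.7e-16). LAPTM5 (1.44) and the sphingomyelinase SMPD1 (1.32) were also among the 2-fold rises, and CTSF, a cysteine protease, was the 2-fold fall (-1.17).

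Of the 12 membrane proteins tested, 10 rose, among them LAMP2 (0.64), NPC1 (0.67) and SCARB2 (0.65). Of 26 glycosidases, sulfatases and lipid hydrolases, 17 rose, among them the sialidase NEU1 (0.56). Of 14 proton pump subunits, 11 rose, with changes up to 0.59 for ATP6V0B. All 6 activators and carriers rose, among them GM2A (0.94) and PSAP (0.40). The transcription factors that drive lysosomal genes went different ways, but only MITF, which fell by 0.41, kept its call. TFEB was 0.31 higher and lost its call without P0 replicate 1 (0.22, adjusted p = 0.064), and TFE3 did not pass (-0.01). LAMP1 lies in the stretch of chromosome 13 described below, and without the members of that stretch 50 of 71 were higher (median 0.29).

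**Figure D2:**
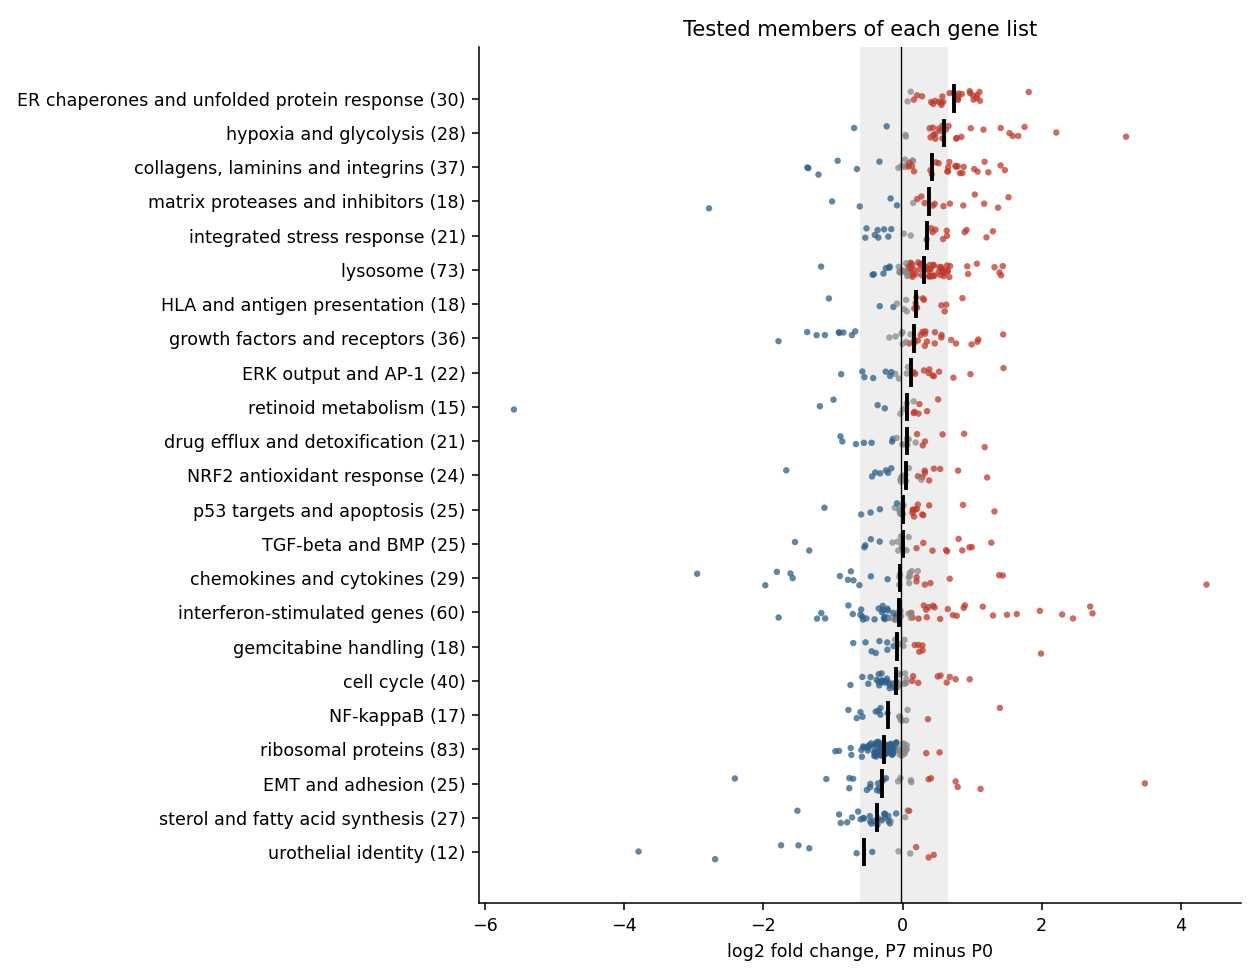
Each point is a tested gene of a list, placed on the horizontal axis by its log2 change between the phases, P7 minus P0; red points were higher and blue points lower at an adjusted p-value below 0.05, grey points did not pass, and black bars are list medians, with the number of tested genes in brackets. The grey band holds 90% of all tested genes (-0.60 to 0.64); the ER list has the highest median (0.74) and the urothelial list the lowest (-0.55).

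Genes of glycolysis and of the hypoxia response rose together, while sterol and fatty acid synthesis genes fell. In the first list, 24 of 28 tested genes were higher, 2 lower and 8 2-fold higher (median 0.60). NDRG1 stood at 5.94, 6.32, 5.82 and 5.93 at P0 and at 9.28, 9.11, 9.24 and 9.22 at P7, a change of 3.21. The glucose transporter SLC2A3 stood at 3.83, 3.89, 3.72 and 3.73 at P0 and at 6.06, 6.0, 5.90 and 6.04 at P7, a change of 2.21. P0 replicate 2 had the highest P0 value of both genes, still far below P7. Hexokinase HK2 (1.75), BNIP3 of mitophagy (1.66), the prolyl hydroxylase P4HA1 (1.58), the pyruvate dehydrogenase kinase PDK1 (1.53), ENO2 (1.41) and PGK1 (1.16) completed the 2-fold rises. HIF1A itself, whose product is controlled mainly by protein stability, fell by 0.69, and PKM fell by 0.23.

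In sterol and fatty acid synthesis, 23 of 27 tested genes (85.2%) were lower and 1, SC5D (0.10), was higher, with a median change of -0.36. SC5D lost its call when any of 5 single libraries was left out (adjusted p = 0.054 to 0.13). DHCR7 (-0.91), INSIG1 (-0.89), FDFT1 (-0.80) and other genes of the sterol branch fell, as did all 8 genes of the fatty acid branch, among them FADS1 (-0.72), SCD (-0.64) and FASN (-0.47). The regulators SREBF1 (-0.45) and SREBF2 (-0.25) also fell. The list stood lower still at P3, with a median of -0.77 against P0.

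Interferon-stimulated genes moved in both directions. Their usual control element, the interferon-stimulated response element, has the core TTTCNNTTTC. It was searched on both strands, with overlaps allowed, in the 250 bases before each RefSeq start (GRCh38.p14). It was found in 1014 of 27305 genes with a promoter (3.71%) and in 318 of 9540 tested genes with one (3.33%). In the list, it was found in 25 of the 43 tested members that have a promoter (58.1%). Among these, it was present in 11 of 18 genes that were higher at P7 (61.1%) and in 9 of 19 that were lower (47.4%). Of the 6 that did not pass, 5 held it (83.3%). The 120 bases before the start are given for 3 genes that rose (IFIT1, IFIT3, ISG15) and 3 that fell (IFI27, IFI6, IFITM1), because members with the same core lay on opposite sides. Capitals mark the core on either strand, and sequences read 5′ to 3′ on the strand of the gene.
IFIT1, chr10:89392503-89392622, plus strand: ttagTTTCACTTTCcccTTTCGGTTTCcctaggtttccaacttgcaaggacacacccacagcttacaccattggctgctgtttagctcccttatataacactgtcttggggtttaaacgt
IFIT3, chr10:89332409-89332528, plus strand: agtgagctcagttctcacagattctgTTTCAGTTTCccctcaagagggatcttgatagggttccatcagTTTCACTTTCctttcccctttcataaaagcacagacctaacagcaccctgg
ISG15, chr1:1013377-1013496, plus strand: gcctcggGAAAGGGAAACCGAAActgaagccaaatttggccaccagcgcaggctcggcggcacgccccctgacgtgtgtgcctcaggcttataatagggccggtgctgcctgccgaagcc
IFI27, chr14:94110616-94110735, plus strand: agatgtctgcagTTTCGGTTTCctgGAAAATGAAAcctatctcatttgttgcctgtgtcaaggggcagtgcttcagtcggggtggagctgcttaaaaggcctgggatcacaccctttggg
IFI6, chr1:27672193-27672312, minus strand: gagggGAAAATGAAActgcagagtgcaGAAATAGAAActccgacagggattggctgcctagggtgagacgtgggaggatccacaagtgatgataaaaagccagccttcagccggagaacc
IFITM1, chr11:313920-314039, plus strand: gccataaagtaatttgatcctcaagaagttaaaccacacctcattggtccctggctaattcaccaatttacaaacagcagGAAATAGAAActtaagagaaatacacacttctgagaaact

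Of 60 tested interferon-stimulated genes, 24 were higher and 26 lower at P7, 9 of them 2-fold higher and 4 2-fold lower, and the median change was -0.05. IFIT1, whose product binds viral RNA lacking a methylated cap, stood at 4.95, 5.42, 4.96 and 4.94 at P0 and at 7.28, 7.41, 7.43 and 7.32 at P7, a change of 2.29 (standard error 0.088, adjusted p = 6.4e-17). OASL, which enhances RIG-I signalling, stood at 3.38, 3.48, 3.57 and 3.46 at P0 and at 6.16, 6.18, 6.31 and 6.15 at P7, a change of 2.73. The P7 libraries of both genes lay above all P0 libraries. IFIT2 (2.45), IFIT3 (1.97), RSAD2 (2.69), IFI44 (1.64), the exonuclease ISG20 (1.30) and the ISG15 ligase HERC5 (1.5) with its relative HERC6 (1.15) completed the 2-fold rises, and ISG15 itself rose by 0.78. Reads can be shared among the related IFIT genes.

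Other antiviral genes fell. IFI27 stood at 7.42, 7.92, 7.51 and 7.45 at P0 and at 5.76, 5.83, 5.83 and 5.76 at P7, a change of -1.78. IFITM1, a membrane protein that blocks viral entry, stood at 5.69, 6.01, 5.65 and 5.64 at P0 and at 4.62, 4.46, 4.49 and 4.51 at P7, a change of -1.23. P0 replicate 2 was the highest library for both, and both phases stayed apart. MX1 (-1.11) and the transcription factor IRF7 (-1.17) were the other 2-fold falls, and IRF9 (-0.78), GBP2 (-0.71), APOBEC3G (-0.60), IFI6 (-0.59) and IFI44L (-0.57) fell less. IRF9 passed the 1 CPM filter through P0, as its P7 values were 0.61 to 0.68 and 1.07. STAT2 rose by 0.35. Of 7 tested sensors of foreign nucleic acid, 5 were higher, among them IFIH1 (MDA5; 0.88), TMEM173 (STING; 0.44), TLR3 (0.38) and DDX58 (RIG-I; 0.30). Without P0 replicate 2, 24 members were higher and 26 lower.

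The interferon genes themselves stayed below the 1 CPM filter. IFNB1 had values of 0.00, 0.00, 0.00 and 0.08 at P0 and of 1.18, 0.94, 1.18 and 0.86 at P7. IFNL1 had 0.00, 0.00, 0.16 and 0.08 at P0 and 1.28, 1.33, 1.18 and 1.74 at P7. For both, each P7 library lay above each P0 library, and no test was made. Class I molecules of antigen presentation, many of which interferons raise, were higher for all 6 genes tested, led by HLA-B (0.86), though reads of HLA genes can be shared between them. In the whole HLA list, 11 of 18 tested genes were higher and 3 lower (median 0.19), and CD74, the class II invariant chain, was 2-fold lower (-1.06).

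**Figure D3:**
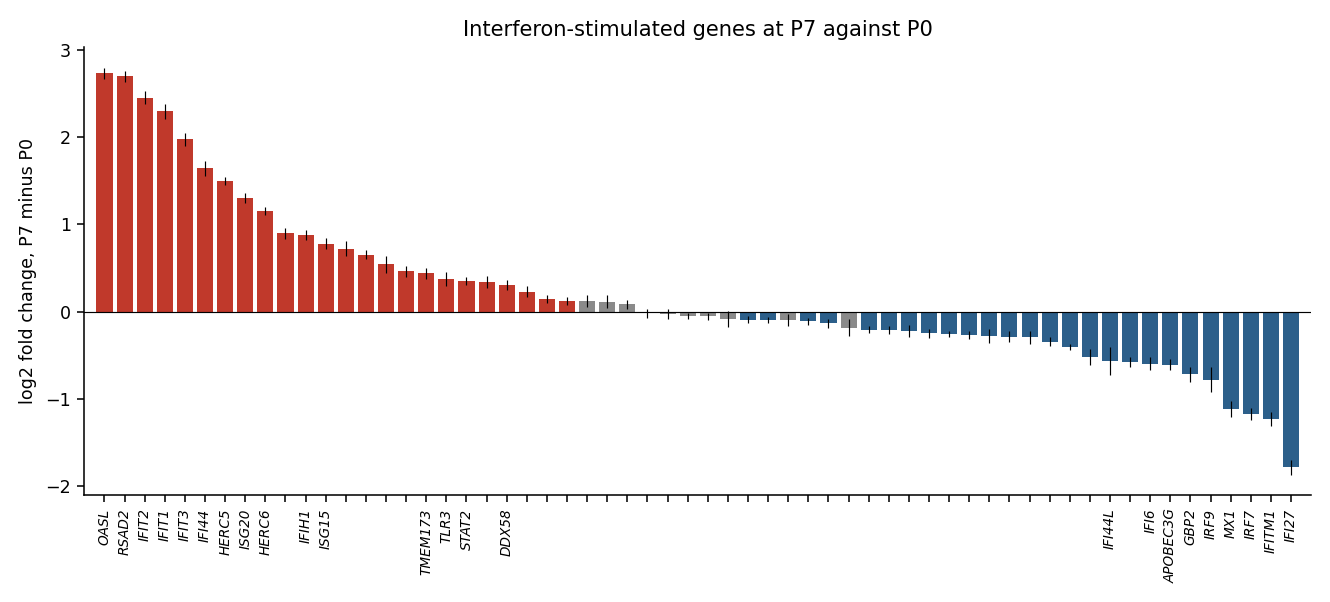
Bars give the log2 fold change from P0 to P7 of the 60 tested interferon-stimulated genes, sorted, with 1 standard error as the error bar; red and blue bars were higher and lower at an adjusted p-value below 0.05 grey bars did not pass, and names are given for the genes described in the text. The bars run from OASL at 2.73 to IFI27 at -1.78, with 24 red and 26 blue bars.

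Chemokines and cytokines changed in both directions. Of 29 tested genes, 8 (27.6%) were higher and 12 (41.4%) lower, against 28.4% and 34.7% of all tested genes, with 3 2-fold higher, 5 2-fold lower and a median of -0.04. The 2-fold rises were CCL5 and the CXCR3 ligands CXCL10 (1.44) and CXCL11 (1.39). CXCL10 stood at 1.57, 2.62, 1.36 and 1.59 at P0 and at 3.18, 3.26, 3.32 and 3.14 at P7, and its P0 replicate 2 lay apart from the other P0 libraries but below P7. The neutrophil-attracting chemokines fell: CXCL8 (IL-8) stood at 8.94, 9.32, 9.23 and 9.10 at P0 and at 7.16, 7.38, 7.53 and 7.30 at P7, a change of -1.80, and CXCL6 (-2.95), CXCL5 (-1.61), CXCL1 (-0.90), CXCL3 (-0.62) and CXCL2 (-0.46) fell as well. The monocyte chemokine CCL2, at 2.25, 2.05, 1.90 and 1.69 at P0, was listed at 0 in all 4 P7 libraries. CSF2 (GM-CSF) fell by 1.58, TNF by 0.79, IL1A by 0.74 and IL1B by 0.70, whereas IL6 rose by 0.32.

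Several of these genes had gone the other way at P3. Against P0, P3 was 1.12 higher for CXCL8, 1.22 higher for CXCL5 and 2.09 higher for CXCL3, and P7 was lower than P3 with differences of -2.93 for CXCL8 (adjusted p = 2.6e-21) and -2.83 for CXCL5 (adjusted p = 1.8e-21). Genes of the NF-κB pathway, which drives many of these chemokines, were lower for 9 and higher for 2 of 17 tested (median -0.22). The inhibitor NFKBIA (-0.66), BCL3 (-0.78), SOD2 (-0.60), BIRC3 (-0.57) and the subunits NFKB1 (-0.35), NFKB2 (-0.32) and RELB (-0.32) fell, and TRAF1 (1.40) and CYLD (0.36) rose.

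Tested members of the epithelial and urothelial lists mostly fell, and vimentin rose without a general rise of mesenchymal genes. Of 25 tested genes of the epithelial-mesenchymal transition, 6 were higher and 15 lower, with a median of -0.29. A further 9 listed genes lay below the 1 CPM filter. ESRP2, a splicing regulator of epithelial cells, stood at 3.06, 3.20, 3.06 and 3.13 at P0 and at 0.68, 0.53, 0.90 and 0.71 at P7, a change of -2.41. ESRP2 passed the filter through P0, where it is high. The adhesion molecule EPCAM (-1.09), CLDN4 (-0.77), OCLN (-0.77) and TJP1 (-0.51) fell, and the desmosomal cadherin DSG2 rose (0.79). Of the mesenchymal proteins, VIM (3.48), SPARC (1.12) and ACTA2 (0.38) rose, while CDH2, the N-cadherin gene (-0.35), FN1 (-0.28), TGFBI (-0.71), S100A4 (-0.29) and TAGLN (-0.34) fell, of which FN1 (adjusted p = 1.0 with quantile normalization) and S100A4 (adjusted p = 0.052 to 0.11 under 4 alternatives) lost their call. The transcription factors SNAI2 (0.76) and ZEB1 (0.41) rose and SNAI1 fell (-0.37). CDH1, the E-cadherin gene, was at or below 0.08 in all 8 libraries, so that its RNA was close to absent from both phases in this sequencing. The study measured ECAD mRNA by qRT-PCR and ECAD protein by immunoblot, and reported both as decreased at P15 against P0. Protein at P7 was not measured here.

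Of 12 tested genes of urothelial identity, 7 were lower, 5 of them 2-fold, and 3 were higher (median -0.55). A further 15 listed genes lay below the 1 CPM filter. Of the 5 2-fold falls, 3 were keratins, and these include KRT81 (-3.79), named above as a hair keratin. The counts are therefore not those of urothelial markers alone. FOXA1, a luminal transcription factor, stood at 4.81, 4.93, 4.92 and 4.86 at P0 and at 3.14, 3.15, 3.02 and 3.23 at P7, a change of -1.75. KRT19 stood at 6.51, 6.41, 6.39 and 6.40 at P0 and at 3.83, 3.68, 3.68 and 3.75 at P7, a change of -2.69. ELF3 (-1.5), KRT80 (-1.34) and GATA3 (-0.43) also fell, and PPARG (0.38) and KLF5 (0.45) rose. KRT8 rose by 0.20, and KRT18 did not pass (-0.06). None of the 5 uroplakins, the markers of differentiated urothelium, passed the 1 CPM filter. UPK2 had values of 0.59 to 1.12 at P0 and 0.46 to 0.75 at P7, UPK3B of 0.15 to 0.50 and 0.31 to 0.41, and UPK1A of 0.04 to 0.22 and 0.47 to 0.82, while UPK1B and UPK3A reached at most 0.08. The keratins KRT5, KRT6A, KRT14 and KRT20 were listed at 0 in all 8 libraries. In retinoid metabolism, 6 of 15 tested genes were higher and 5 lower (median 0.06); besides DHRS3, RDH10 (-1.19) and ALDH1A3 (-0.99), which act in the synthesis of retinoic acid, fell, and the receptors RXRA (0.51) and RARG (0.35) rose.

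Matrix genes rose more often than they fell. Of 37 tested collagens, laminins and integrins, 24 were higher and 6 lower (median 0.42). ITGB4, the integrin of hemidesmosomes, stood at 2.05, 2.16, 2.13 and 2.45 at P0 and at 3.66, 3.53, 3.75 and 3.73 at P7, a change of 1.47. LAMA4 (1.41), COL17A1 (1.23), COL6A3 (1.18), LAMA1 (1.08) and COL4A1 (1.03) also rose by 2-fold, and ITGB3 (-1.37), COL8A1 (-1.35) and COL12A1 (-1.21) fell by 2-fold. COL4A1 and COL4A2 (0.79) lie in the stretch of chromosome 13 described below. Of 18 tested proteases and inhibitors, 12 were higher and 5 lower (median 0.38). The urokinase receptor PLAUR stood at 5.90, 5.98, 5.82 and 5.98 at P0 and at 7.46, 7.36, 7.54 and 7.41 at P7, a change of 1.52. The serpins SERPINB7 (1.37) and SERPINB5 (1.17) rose by 2-fold, whereas PLAT (-2.78) and MMP13, a collagenase (-1.01), fell.

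Of 36 tested growth factors and receptors, 20 were higher and 9 lower (median 0.17). FGF2 stood at 5.66, 5.74, 5.68 and 5.76 at P0 and at 7.12, 7.20, 7.14 and 7.16 at P7, a change of 1.45. FGF5 went the other way, from 4.60, 4.73, 4.55 and 4.40 to 2.91, 2.85, 2.72 and 2.67, a change of -1.78. Of the ligands of the EGF family, TGFA rose (1.09) and EREG fell (-1.11). The receptors ERBB3 (-1.37) and PDGFRB (-1.24) fell, and EGFR rose by 0.17. GAS6, the ligand of AXL, rose by 1.07 and AXL by 0.32.

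In the TGF-β and BMP list, 10 of 25 tested genes were higher and 6 lower (median 0.01), with falls of the ligand TGFB2 (-1.54) and of SMAD3 (-1.34) and rises of the pseudoreceptor BAMBI (1.27), ID2 (0.99), ID1 (0.96), SMAD7 (0.86) and ID3 (0.81). In the list of ERK output and AP-1, 11 of 22 tested genes were higher and 7 lower (median 0.12), with rises of the feedback inhibitor SPRY2 (1.45) and of EGR1 (0.97) and falls of JUND (-0.88) and MYC (-0.58).

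Cell cycle genes moved little. Of 40 tested, 9 were higher and 22 lower, none by 2-fold, with a median of -0.10. Of 11 replication genes, 10 were lower, from -0.14 for MCM3 to -0.58 for PCNA. Of the G1 genes, CCNE1 (0.76), CDK6 (0.68) and CCND3 (0.55) rose. The inhibitors CDKN2A (-0.75) and CDKN2B (-0.37) of chromosome 9 fell, and the tumour suppressor RB1, on chromosome 13, rose by 0.96.

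Of 25 tested p53 targets and apoptosis genes, 12 were higher and 5 lower (median 0.01), with BIK (1.32) and PMAIP1 (NOXA; 0.87) rising, BMF (-1.12) and BID (-0.59) falling, and the p53 targets CDKN1A (0.06), MDM2 (0.01) and BAX (0.01) not passing. Of 24 tested NRF2 genes, 9 were higher (37.5%) and 7 lower (29.2%), with a median of 0.05. The aldose reductase AKR1B1 (-1.67) and AKR1C3 (1.22) were the 2-fold changes. Of 21 tested genes of drug efflux and detoxification, 6 were higher (28.6%) and 7 lower (33.3%), with a median of 0.06. Both shares were close to those of all tested genes (28.4% and 34.7%). ABCC4 (1.18) was the 2-fold rise and lies on chromosome 13, while ABCB1, the classical multidrug transporter, fell by 0.86 and ABCG2 by 0.45. Of 83 tested ribosomal protein genes, 68 (81.9%) were lower and 2, RPL39L (0.53) and RPL26L1 (0.34), were higher, none by 2-fold, with a median of -0.26. Their summed share of the CPM was 6.28 to 6.59% at P0 and 5.09 to 5.21% at P7.

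Bins on a few chromosomes stood apart from the rest of the genome. Positions of 11803 tested genes (91.3%) were taken from GENCODE version 44 on GRCh38, and the genes were placed in bins of 10 Mb, of which 227 held at least 20. Bin medians had an interquartile range of -0.09 to 0.05. The 3 highest bins all lay on the long arm of chromosome 13, at 90 to 100 Mb (median change 0.88, 18 of 21 genes higher), 110 to 120 Mb (0.86, 24 of 25 higher) and 50 to 60 Mb (0.78, 19 of 21 higher). The next were 80 to 90 Mb of chromosome 2 (0.41, 27 of 32 higher) and 70 to 80 Mb of chromosome 12 (0.27, 17 of 24 higher). The lowest bins lay on chromosome 8 at 40 to 50 Mb (-0.52, 23 of 25 lower), 20 to 30 Mb (-0.40, 42 of 50 lower) and 30 to 40 Mb (-0.38, 27 of 34 lower), on chromosome 9 at 0 to 10 Mb (-0.47, 17 of 22 lower), and on chromosome 15 at 90 to 100 Mb (-0.37, 20 of 30 lower).

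**Figure D4:**
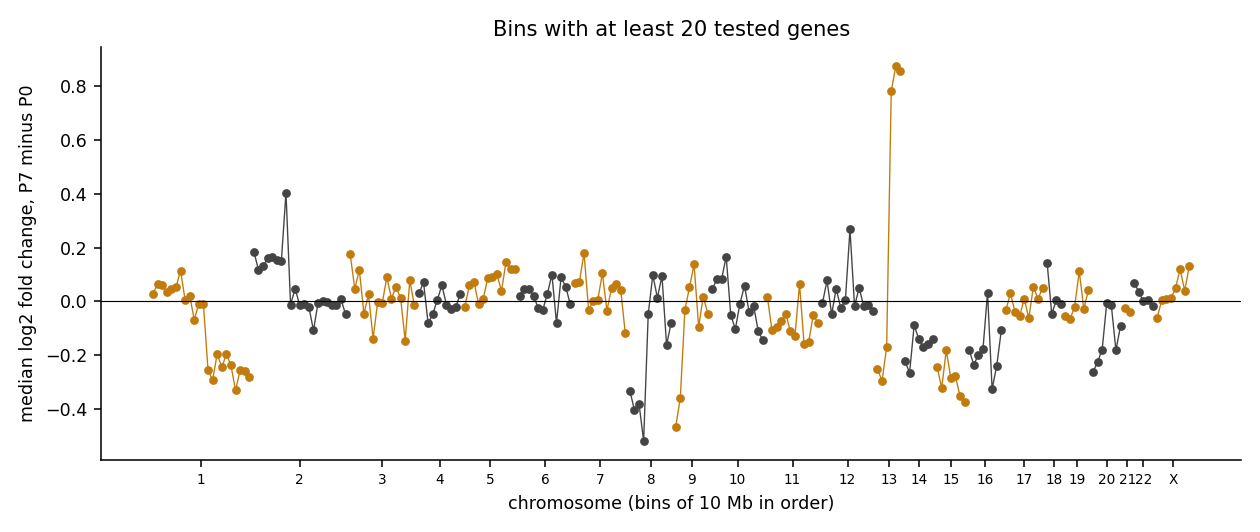
Points are bins of 10 Mb with at least 20 tested genes, in order along chromosomes 1 to 22 and X on the horizontal axis, with the median log2 fold change of their genes from P0 to P7 on the vertical axis; colours alternate between chromosomes. Of the 227 bins, 3 bins of chromosome 13 stand highest (0.78 to 0.88), and the lowest lies on chromosome 8 (-0.52).

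Along chromosome 13 the change was abrupt. Of 95 tested genes from the first up to LRCH1 (chr13:19633659-46753040), 71 were lower and 8 higher, with a median of -0.31. Of 122 tested genes from the next gene, the esterase ESD, to the end (chr13:46771256-114337626), 114 (93.4%) were higher and 3 lower, with a median of 0.88 and an interquartile range of 0.65 to 1.07. This boundary was placed after the values were seen, so that these counts are a description. The medians of single libraries relative to the P0 mean were -0.01 to 0.01 at P0 and 0.85 to 0.94 at P7 for the distal stretch, and -0.32 to -0.24 at P7 for the proximal one. The distal stretch held 38 of the 247 genes that rose by 2-fold (15.4%), and 31.1% of its tested genes rose by 2-fold against 1.91% of all. At P3 its median against P0 was 0.53, with libraries at 0.50 to 0.54, and at P15 it was -0.08, with libraries at -0.10 to -0.05.

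Genes of unrelated function shared this change. HS6ST3, a heparan sulfate sulfotransferase, rose most (2.24), followed by DNAJC3 (1.81), DLEU2 (1.65), WDFY2 (1.56), PCDH17 (1.48), SPRY2 (1.45), ADPRHL1 (1.43) and LAMP1 (1.42). RB1 stood at 7.26, 7.17, 7.30 and 7.28 at P0 and at 8.17, 8.32, 8.21 and 8.17 at P7, and DNAJC3 at 6.50, 6.47, 6.52 and 6.50 at P0 and at 8.26, 8.39, 8.33 and 8.26 at P7. Neighbouring genes of the lists, IRS2, GAS6, ABCC4, COL4A1 and COL4A2, are among the 114. The 3 genes that fell were DZIP1 (-0.80), SLC15A1 (-0.62) and GRTP1 (-0.22), and GRTP1 lost its call under 13 alternatives (adjusted p = 0.052 to 0.17). No DNA measurement is part of these files, and the part of gene dosage in the change was not tested.

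**Figure D5:**
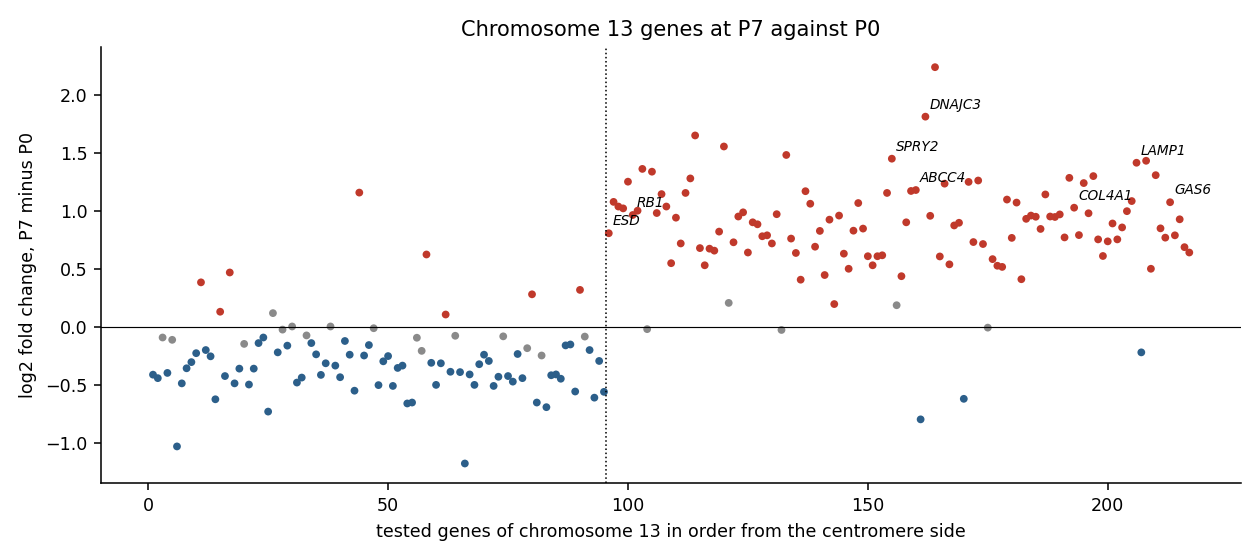
Points are the 217 tested genes of chromosome 13 in their order along the chromosome (horizontal axis), with the log2 fold change from P0 to P7 on the vertical axis; red genes were higher and blue genes lower at an adjusted p-value below 0.05, grey did not pass, and the dotted line stands before ESD. To the left of the line 71 of 95 genes are lower, and to the right 114 of 122 are higher.

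Most markers of other cell types lay near 0 in both phases, with CD14 and CDH5 as exceptions. In bulk RNA, fewer cells of a type and less RNA per cell cannot be told apart. Of 15 markers of leukocytes, fibroblasts, endothelium, erythrocytes and liver, 13 lay below the 1 CPM filter, and the summed level of these 13 was 0.767 to 1.39 CPM at P0 and 0.725 to 1.06 CPM at P7; PTPRC, CD3E, DCN, HBB and HBA1 were listed at 0 in all 8 libraries. CD14, a monocyte marker, had values of 2.84 to 3.24 at P0 and 2.70 to 2.83 at P7 and did not pass (-0.18, adjusted p = 0.083). CDH5, the VE-cadherin gene, had values of 2.64, 2.74, 2.59 and 2.97 at P0 and was listed at 0 in all 4 P7 libraries. Of the other endothelial markers, both below the filter and not tested, PECAM1 had 0.78, 1.05, 0.88 and 1.08 at P0 and 0.61, 0.80, 0.26 and 0.39 at P7, and VWF reached at most 0.21.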

How the data were processed

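Whole-transcriptome RNA sequencing of T24 and GRC1 cells gave 16 libraries, 4 in each of 4 phases. The authors aligned reads with STAR (version 2.6.1a, per the labels) to GRCh38, counted them per gene with featureCounts and deposited log2 values of CPM plus a pseudocount of 1, rounded to 2 decimals. Their methods also name quantile normalization and median centring, which were not seen in the values. The annotation release, strand setting and treatment of multimapping reads are not given in the sources used here. Of the gene names, 27 had been turned into dates and 2 were repeated.

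Library totals were estimated from the steps between low values, which cover counting only. All 16 libraries were fitted with limma (version 3.58.1, R 4.3.3) with a variance trend and 1 coefficient per phase. Genes with a mean above 1 CPM over the 8 P0 and P7 libraries were tested for P7 minus P0, two-sided, with Benjamini-Hochberg adjustment. A 2-fold call needed an adjusted p-value below 0.05 and a log2 fold change of at least 1 in size. The fit was tested on simulated data with known changes.

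Named genes were drawn from the 12 largest non-overlapping rises and falls, the largest changes of each list, genes the study names for this phase and for gemcitabine handling, and list members whose role is described. Genes of chromosome 13 and the families among the other observations were added after their values were seen. Members and lists were chosen with earlier results of these data known. Lists are described by counts and medians only. Alternatives covered filters, pseudocounts, scalings, a replicate block, a test against the 2-fold threshold, and each replicate left out. Promoters came from RefSeq (GRCh38.p14). P15 enters the fit but was not tested here. Some genes that met the naming rule are not reported here.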

Additional observations from a re-analysis of the deposited data

Results flagged for a closer look

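In 49 of 489 groups of 4 libraries (10.00%) over the 256 genes named, the highest or lowest library lay apart from the other 3 by more than Dixon's critical value. Chance alone flags about 1 in 20 groups, genes are not independent, and values rounded to 2 decimals can give gaps of a few hundredths. P0 replicate 2 was the library most often apart, with log2 values of 1.46 for CEACAM1 (1.15 to 1.2 in the other 3), 6.24 for EDEM1 (6.43 to 6.46 in the other 3), 8.4 for PHGDH (8.59 to 8.6 in the other 3), 6.51 for LAPTM5 (6.3 to 6.32 in the other 3), 9.96 for PSAP (9.91 to 9.91 in the other 3), 7.8 for INSIG1 (7.88 to 7.89 in the other 3), 8.92 for FADS1 (9.07 to 9.09 in the other 3), 5.42 for IFIT1 (4.94 to 4.96 in the other 3), 6.01 for IFITM1 (5.64 to 5.69 in the other 3), 6.63 for APOBEC3G (6.33 to 6.35 in the other 3), 4.25 for IFI44L (3.1 to 3.17 in the other 3), 7.83 for HLA-B (7.58 to 7.59 in the other 3), 3.68 for OCLN (3.59 to 3.6 in the other 3), 6.32 for TJP1 (6.5 to 6.52 in the other 3) and 7.4 for ESD (7.31 to 7.32 in the other 3). P7 replicate 3 followed, with log2 values of 8.17 for PHGDH (8.21 to 8.21 in the other 3), 7.9 for LAPTM5 (7.76 to 7.77 in the other 3), 7.1 for INSIG1 (6.92 to 6.94 in the other 3), 8.29 for FADS1 (8.32 to 8.32 in the other 3), 4.84 for TNF (4.41 to 4.43 in the other 3), 1.96 for ACTA2 (1.82 to 1.83 in the other 3), 5.86 for SERPINB5 (5.72 to 5.74 in the other 3), 7.66 for SMAD3 (7.69 to 7.69 in the other 3), 3.82 for EGR1 (3.17 to 3.25 in the other 3) and 3.59 for AKR1C3 (3.5 to 3.51 in the other 3). P0 replicate 4 stood apart with log2 values of 5.3 for CRELD2 (5.22 to 5.23 in the other 3), 7.23 for TFE3 (7.16 to 7.17 in the other 3), 6.21 for TMEM173 (6.09 to 6.11 in the other 3), 0.08 for IFNB1 (0.0 to 0.0 in the other 3), 7.4 for NFKB2 (7.26 to 7.28 in the other 3) and 3.24 for CD14 (2.84 to 2.87 in the other 3). P0 replicate 1 stood apart with log2 values of 4.2 for SPNS2 (4.28 to 4.29 in the other 3), 5.81 for NME1 (5.98 to 6.0 in the other 3), 8.37 for SLC3A2 (8.4 to 8.4 in the other 3), 4.68 for CXCL2 (4.91 to 4.94 in the other 3) and 6.51 for KRT19 (6.39 to 6.41 in the other 3). P7 replicate 4 stood apart with log2 values of 1.07 for IRF9 (0.61 to 0.68 in the other 3), 0.0 for TMEM47 (0.21 to 0.23 in the other 3), 4.37 for TLR3 (4.6 to 4.64 in the other 3), 3.45 for TRAF1 (3.39 to 3.4 in the other 3) and 6.23 for SNAI2 (6.15 to 6.16 in the other 3). P0 replicate 3 stood apart with log2 values of 0.0 for CDH1 (0.07 to 0.08 in the other 3), 0.08 for UPK1B (0.0 to 0.0 in the other 3) and 0.08 for UPK3A (0.0 to 0.0 in the other 3). P7 replicate 2 stood apart with log2 values of 6.28 for ATF6 (6.21 to 6.22 in the other 3), 5.16 for IRF7 (5.31 to 5.32 in the other 3) and 7.14 for GAS6 (7.24 to 7.26 in the other 3). P7 replicate 1 stood apart with log2 values of 5.51 for NME1 (5.57 to 5.58 in the other 3) and 6.38 for PPARG (6.35 to 6.35 in the other 3).

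For 18 named genes the change from P0 had opposite signs at P3 and P7, and the difference between P7 and P3 passed the test (limma, adjusted over all tested genes, P0 shared by both changes). P7 was higher than P3 for SLC7A11 (0.65), PSAP (0.57), TFEB (0.55), SC5D (0.27), TLR3 (0.63), PPARG (0.80), RARG (0.50) and COL6A3 (2.16). P7 was lower than P3 for CXCL8 (-2.93), CXCL5 (-2.83), CXCL1 (-1.58), CXCL3 (-2.71), CXCL2 (-1.82), IL1B (-1.40), BIRC3 (-0.99), NFKB2 (-0.55), TJP1 (-0.64) and TAGLN (-3.39). TAGLN, an actin-binding protein of smooth muscle, and the neutrophil chemokines CXCL8, CXCL5 and CXCL3 had the widest differences.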

How the results depend on the processing

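Counts of 2-fold changes depended on the handling of low values. Requiring 1 CPM in all 8 libraries gave 210 higher and 127 lower, a mean above 5 CPM gave 189 and 112, and a pseudocount of 5 gave 134 and 69, of which 66.0% were higher against 53.7% as reported. The 1 CPM and 5 CPM filters gave 62.3% and 62.8% higher. A pseudocount of 0.1 gave 345 and 318, and limma's treat test against the 2-fold threshold gave 142 and 119. Leaving out each replicate in turn gave 245 to 262 higher and 208 to 218 lower by 2-fold, and 3474 to 3623 higher and 4219 to 4425 lower at any size. The median of the highest 10 Mb bin was 0.77 (0.774) with a pseudocount of 5. The highest bin of 5 Mb had 0.94 (0.942) and lay on chromosome 13 at 45 to 50 Mb, outside the highest 10 Mb bin (90 to 100 Mb). In it 18 of 27 genes were higher and 7 lower, and it holds genes on both sides of the boundary before ESD. With the replicate number as a block, 247 were 2-fold higher and 213 lower, and 3660 and 4453 at any size. Same-numbered libraries correlated at 0.033 to 0.086 in their deviations, and libraries with different numbers at -0.121 to 0.085. Values this small cannot decide whether the numbers pair the samples. List medians changed sign for 4 lists, namely chemokines (0.029 without P0 replicate 2, 0.04 without P7 replicate 1, 0.023 without P7 replicate 4 and 0.038 with no filter), TGF-β and BMP (-0.002 without P0 replicate 4, -0.012 without P7 replicate 2), retinoid metabolism (-0.006 with no filter) and markers of other cell types (0.018 with no filter, from -1.46 over 2 tested genes). No named gene that passed in the main fit or in the alternative changed direction, except that FN1 came to 0 with quantile normalization. Sign changes of genes that passed in neither were not counted. Calls of GRTP1, SC5D, TFEB and S100A4 were lost when single libraries were left out. Calls were gained for ERN1 (adjusted p = 0.02 without P0 replicate 4, and 0.042 with quantile normalization or the same median), CDKN1A (0.038 without P7 replicate 2) and CD14 (0.035 with a pseudocount of 5, 0.038 with no variance trend). The cause of these changes was not tested. Depth limits genes near 1 CPM, where rounding to 2 decimals also coarsens the values.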

Other observations

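Genes encoded by the mitochondrial genome were higher at P7, and the P0 libraries varied widely in them. Of 13 mitochondrially encoded protein genes tested, 12 were higher (median change 0.59). SDs over the 13 genes were 0.35 to 0.51 at P0 and 0.05 to 0.16 at P7. The fit uses 1 spread per gene from all 16 libraries, so these calls rest partly on phases tighter than P0, such as P7. MT-ND1, a subunit of complex I, rose most, from a mean of 8.31 (SD 0.51, n = 4) to 9.46 (SD 0.08, n = 4), and MT-ATP8, a subunit of ATP synthase, did not pass (0.15, adjusted p = 0.3 by limma). P0 replicate 2, with a mitochondrial share of 1.80%, lay within the P7 range of 1.63 to 1.92%. Its part in the mitochondrial result was not tested.

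Of 23 MAGEA, MAGEB and MAGEC genes of the X chromosome listed, 3 passed the 1 CPM filter, MAGEA6, MAGEB17 and MAGEA3. They passed through P0, where they are high, so that their falls say nothing about the family. Among members that did not pass, MAGEA1 had means of 0.95 at P0 and 0.09 at P7, MAGEC2 of 0.02 and 0.50, and MAGEB2 of 0.35 and 0.41. These antigens are normally restricted to the testis. At P15, MAGEA3 stood at a mean of 6.21 and MAGEA6 at 3.31, while MAGEB17 stayed at 0.13. Both families were chosen after the values were seen.

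A further 52 genes were listed at 0 in all 4 P0 libraries and above 0 in all 4 P7 libraries, all of them below the 1 CPM filter. The matrix protein gene MXRA5 was the highest, at 1.11 to 1.49 across the P7 libraries. Another 64 genes showed the reverse, of which CDH5 and CCL2 passed the filter.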
